A study of Homo sapiens with 2 samples.

Results

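Pairs of 5' splice sites (5'SS) that lie 1 to 12 bases apart at the end of the same exon were examined in the table of alternative 5'SS events for HEK293T cells with and without amiloride. The members were selected by coordinates alone: a row was kept when the long form of the exon exceeded the short form by 1 to 12 bases. This rule kept 415 of the 2620 events listed, or 15.8%. Several events can share a pair when they differ in the exon that follows, and the 415 events held 332 distinct pairs in 311 genes, out of 2008 pairs in the table. HEK293T is an established cell line derived from human embryonic kidney. Polyadenylated RNA was sequenced from 1 control library, grown without amiloride, and from 1 library of cells given 300 µg/mL of amiloride for 6 h. Amiloride is a potassium-sparing diuretic whose known target is the epithelial sodium channel. The authors compared these libraries with rMATS, which weighs the reads of the long form of an event against those of the short form.

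The tables number the libraries 1 and 2 without naming the condition, so their columns of reads and inclusion levels were not used, and the authors' p-values, FDR and inclusion level differences are not reported. The depth of each library, the share of each form and the effect of amiloride are therefore not given here, and the cell line was not checked against marker genes. What follows describes which close pairs the table lists, where they lie and what sequence they carry. A listing says that rMATS reported the event, not how many reads each form had. The effective length of the long form was 127 to 137 bases for the members, against 125 bases for the short form. In 100% of the 2620 events the lengths differed by exactly the distance between the sites.

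A 5'SS marks the end of an exon. It is recognised first by the U1 small nuclear RNA, which pairs with the last bases of the exon and the first bases of the intron, and it almost always begins the intron with GT. When a second usable site lies a few bases away, both compete for the same U1 and the same 3'SS of the next exon, and the mRNA gains or loses a short stretch. In coding sequence a stretch that is a multiple of 3 adds or removes whole codons, while any other length shifts the reading frame and can expose the mRNA to nonsense-mediated decay. Below, the upstream site gives the short exon and the downstream site the long exon.

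Pairs long known to give protein variants, such as those of WT1, FGFR2 and STAT3, were among the members. The sequences of 6 coding pairs are shown first, to let the paired sites be read side by side. Each is read 5' to 3' on the transcript's strand from GRCh37, with 8 bases before the upstream site and 8 after the downstream site. Capitals mark the stretch that only the long form keeps, so the upstream intron would begin with the first capital and the downstream intron with the first small letter after the capitals.
STAT3, 3 bases: tgacccagGTAgttgttga
NR3C1, 3 bases: agtggaagGTAgtgtgtgt
RBM10, 3 bases: ccaccatcGTGgtgagggc
FGFR2, 6 bases: ggagacagGTAACAgaaagtag
WT1, 9 bases: tcatacagGTAAAACAAgtgcgtaa
KIT, 12 bases: atttaaagGTAACAACAAAGgtatattt

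STAT3, a transcription factor activated by cytokines, carried its pair at the end of exon 21 of 24, with the added stretch at chr17:40474300-40474302 on the minus strand. The long form is known to carry an extra serine close to the tyrosine whose phosphorylation activates the protein. A 5'SS score over 9 bases (3 in the exon, 6 in the intron) sums log2 ratios of the base frequencies at annotated 5'SS over equal frequencies, and the median annotated site scored 8.05. The upstream STAT3 site scored 7.21 and the downstream site -2.75, yet the canonical transcript of GENCODE uses the downstream site. Both are well annotated, with 11 protein-coding transcripts ending the exon upstream and 17 downstream.

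In NR3C1, the glucocorticoid receptor, the pair closes exon 3 of 9 at chr5:142693564-142693566. The added codon lies between the zinc fingers that bind DNA. Here the upstream site had the higher score, 5.76 against 3.42, and is the canonical choice. RBM10, an RNA-binding splicing regulator, showed the opposite order at chrX:47039437-47039439, with -2.11 upstream and 7.47 downstream.

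The receptor tyrosine kinases FGFR1 and FGFR2 shared an arrangement that a search for GT would miss. In FGFR2 the stretch lies at chr10:123274631-123274636 and the canonical downstream site begins with GA, while the upstream site begins with GT and scored 7.69. The GA site scored -12.23, because the score was built from sites with GT and penalises any other dinucleotide. FGFR1 had the same scores at its equivalent pair, after exon 9 of 18. These 6 bases encode the valine and threonine known to affect binding of the adaptor FRS2. A further FGFR1 pair, also 6 bases apart, closed exon 4 with low scores of 0.98 upstream and 1.73 downstream, an order that turned when the base frequencies of the windows replaced equal ones as background.

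WT1, a zinc finger transcription factor of kidney and gonad development, carried its pair of 9 bases at chr11:32413518-32413526 after exon 9 of 10. The stretch encodes the lysine, threonine and serine that separate the known KTS isoforms. The upstream site scored 8.31 and the canonical downstream site 5.90, a difference of -2.41 that was -0.88 with the base frequencies of the windows as background. For KIT, the receptor of stem cell factor, the 12 bases at chr4:55592205-55592216 after exon 9 of 21 lay between sites that scored 7.59 and 7.19, each with 5 protein-coding transcripts. KIT was named after its values were seen, and its difference of -0.40 was -1.43 with the other background. Across these genes the canonical site was the lower-scoring one in STAT3, FGFR2, WT1 and KIT and the higher-scoring one in NR3C1 and RBM10. For FGFR2 this order follows from the score's penalty on GA, and the sites of KIT scored almost alike.

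Distances were unevenly spread. The commonest was 4 bases, with 77 pairs or 23.2% of the 332 (95% Wilson interval 19.0 to 28.0). All intervals given for shares are of this kind and take in no error other than that of counting pairs. Next came 3 multiples of 3, with 54 pairs 12 bases apart, 48 pairs 9 apart and 35 pairs 6 apart, while 21 pairs were 3 apart. Each remaining distance from 2 to 11 bases held 8 to 23 pairs, and none was 1 base apart. Just beyond the window, 15 pairs were 13 bases apart, 17 were 14 apart and 42 were 15 apart, the last again a multiple of 3. Over the whole table the median distance was 62 bases, with a range from 2 to 3309.

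The consensus of annotated sites, CAGGTAAGT, holds GT again 4 bases after the first GT. Of 300873 annotated 5'SS with GT, 39.2% had a GT 4 bases downstream, whereas the share lay between 0% and 6.40% at the other offsets up to 12 bases. On the exon side GT was found at the offsets from 1 to 12 bases in 0% to 4.60% of annotated sites. Among the close pairs that GENCODE itself annotates, 750 of 2276 or 33.0% were 4 bases apart.

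The table held 211 of the 2276 annotated close pairs, or 9.27%. By distance, 17.1% of 709 annotated pairs at multiples of 3 were listed (14.5 to 20.0), compared with 4.80% of 750 pairs 4 bases apart (3.49 to 6.57) and 6.61% of 817 pairs at other distances (5.10 to 8.52). GENCODE release 44 need not be the annotation given to rMATS, and whether the genes were expressed was not used in these shares. Both sites of a pair were annotated 5'SS in 281 member pairs, or 84.6% (80.4 to 88.1), counting sites whatever their exon start. For pairs over 12 bases apart the share was 91.4% of 1676 (90.0 to 92.7).

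Most close pairs lay in coding sequence. A transcript with its coding segment running through the junction was found for 223 pairs, or 67.2% (61.9 to 72.0), and 86 pairs, or 25.9%, lay in a 5'UTR. The remainder comprised 7 pairs in a 3'UTR, 14 in noncoding transcripts and 2 at sites without annotation. Pairs further apart were in coding sequence in 54.5% of cases (52.1 to 56.8) and in a 5'UTR in 39.4%. No test was made of the difference, since pairs are not replicates.

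Distance and region went together. Of the coding pairs, 126 of 223 or 56.5% (49.9 to 62.8) were a multiple of 3 apart and kept the reading frame. Within a window of 1 to 9 bases it was 86 of 169 coding pairs, or 50.9%. In the 5'UTR, where no frame is read, 26 of 86 pairs were a multiple of 3 apart, or 30.2% (21.5 to 40.6). Among all annotated close pairs in coding sequence, 35.2% of 1544 kept the frame (32.8 to 37.6). Seen from the distances, 19 of 21 pairs at 3 bases, 28 of 35 at 6, 39 of 48 at 9 and 40 of 54 at 12 were coding, against 40 of 77 at 4 bases and 6 of 16 at 10 bases. Pairs over 12 bases apart kept the frame in 51.6% of 913 coding cases and in 33.6% of 660 cases in the 5'UTR.

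The added stretch of a frame-keeping pair holds between 1 and 4 codons. Its reading frame was taken from an annotated coding segment that ends at the downstream site, which could be done for 109 pairs. Such a segment holds no stop codon by definition. That none of the 109 gained a stop codon was therefore set beforehand and is no result. Transcripts annotated as protein-coding used both sites in 111 of the 126 frame-keeping pairs, or 88.1% (81.3 to 92.7). For the 97 coding pairs that shift the frame this share was 47.4% (37.8 to 57.3), and in 51 of them only 1 site had a protein-coding transcript. A transcript labelled as a target of nonsense-mediated decay used a site in 55.7% of frame-shifting pairs (45.8 to 65.2) and in 63 of the 126 frame-keeping pairs (41.4% to 58.6%), and the intervals overlap.

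Frame-keeping pairs were found in genes of varied function. KMT2A, the histone H3 lysine methyltransferase rearranged in leukaemia, had 9 bases at chr11:118362025-118362033 with scores of 5.36 and 4.92, whose difference of -0.44 was -3.87 with the base frequencies of the windows as background. TLE3, a corepressor, had 9 bases at chr15:70350489-70350497, and 5 and 6 protein-coding transcripts used the sites, which scored 4.47 and 4.86. In NRXN3, a synaptic adhesion protein, the sites flanking the 9 bases at chr14:80271534-80271542 scored 10.30 and 8.63. In TFG, which acts in export from the endoplasmic reticulum, the 12 bases at chr3:100455549-100455560 lay between sites of 7.25 and 8.21 used by 12 and 14 protein-coding transcripts. With the base frequencies of the windows as background the order of the sites turned in NRXN3 and TFG.
KMT2A, 9 bases: tctttcagGTACAGAAGgttggagt
NRXN3, 9 bases: gagtacagGTAGGTCAGgtcagtct
TFG, 12 bases: tcaagcagGTCAGATTGAAGgtaaaata

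Frame-shifting pairs in coding exons included PML, the organiser of nuclear bodies, with 8 bases at chr15:74325756-74325763 and scores of 8.95 and 8.62. Their difference of -0.34 was -2.12 with the other background. GENCODE labels 9 transcripts as protein-coding at the upstream site and 4 at the downstream site. RPL13A, a protein of the large ribosomal subunit, had 10 bases at chr19:49993170-49993179, where the canonical downstream site scored 8.83 and the upstream site 5.22, a difference of 3.61 that was 0.17 with the base frequencies of the windows as background. THTPA, a thiamine triphosphatase, had 5 bases at chr14:24026244-24026248 and sites of 3.94 and 4.35, whose order turned with the other background.

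In the 5'UTR a pair changes the untranslated leader of the mRNA. The first exon of RPL10 carried a pair 4 bases apart at chrX:153626736-153626739, with 8.81 upstream at the canonical site and 4.21 downstream, and the difference of -4.60 was -2.37 with the other background. RAP1B, a small GTPase, had 9 bases at chr12:69004824-69004832, where 17 and 9 protein-coding transcripts used the sites. In DAG1, which encodes dystroglycan, the sites 5 bases apart scored 10.43 and 10.38. The sites of PAK4, a p21-activated kinase, scored 9.48 each, since their 9-base windows were identical. Such identity occurred in 2 of the 332 pairs.
RPL10, 4 bases: tcggtgtgGTGAgtaagcgc
DAG1, 5 bases: actagaagGTGAGgtaaggta
PAK4, 10 bases: cagaccagGTGTGTGCAGgtgtgtgc

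Median scores of close pairs lay below 8.05, the median of annotated sites with GT. The medians of the pairs take in sites without GT as well, which the score penalises. The upstream sites had a median score of 5.46 (quartiles 3.21 and 7.47) and the downstream sites 6.01 (4.10 and 7.68). In pairs over 12 bases apart the medians were 6.44 and 6.72. The difference, downstream minus upstream, had a median of 0.40 over all members (95% interval of the median -0.04 to 0.91), and 182 of 332 pairs scored higher downstream, or 54.8% (49.4 to 60.1). The lean depended on the background of the score. With the base frequencies of the windows as background in place of equal ones, 48.2% scored higher downstream.

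By the score, a lean was clearer at 4 bases. There the downstream site scored higher in 55 of 77 pairs, or 71.4% (60.5 to 80.3), with a median difference of 2.07 (1.09 to 3.50). At the other distances 127 of 255 pairs, or 49.8% (43.7 to 55.9), scored higher downstream, and the median difference was 0.00. Restricting the 4-base pairs to those with GT at both sites gave 63.8% of 58 (50.9 to 74.9) and a median difference of 1.14. Both sites were annotated in 56 of the 77 pairs, and 69.6% of these 56 scored higher downstream. The number of positions that match the consensus was not compared at this distance. Over all 332 pairs it was higher downstream in 26.8% and higher upstream in 37.7%, so the lean may depend on the measure.

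At 4 bases the order of the scores differed with the letters between the sites. The stretch was GTAG in 24 pairs, and 20 of these scored higher downstream. It was GCAG in 10 pairs, all of which scored higher downstream. The upstream site of these begins with GC, which a score built from sites with GT penalises, so this order was largely set beforehand. For GTGA, in 9 pairs, only 1 scored higher downstream, and for GTAA it was 2 of 5. Stretches with another end were not alike, since GTGG scored higher downstream in 6 of 8 pairs and GTTG in 4 of 5. The last bases of the stretch are the exon end of the downstream site, so the scores partly follow from the letters. The score was built from annotated 5'SS, the sites of canonical transcripts among them, so the canonical choice is not wholly independent of it. Where GENCODE's canonical transcript used exactly 1 of the sites, it used the downstream site in 22 of 28 pairs whose stretch ended in AG, or 78.6% (60.5 to 89.8), and in 10 of 31 with another end, or 32.3% (18.6 to 49.9). At the other distances the corresponding shares were 49.4% of 79 (38.6 to 60.2) and 55.6% of 135 (47.1 to 63.7), whose intervals overlap. The 4-base stretches ending in AG pooled GTAG, with 13 canonical sites downstream and 5 upstream, and GCAG, with 8 and 1. They also took in the GGAG stretch of IKZF5, whose canonical site was downstream. GCAG pairs set a GC site upstream against a GT site downstream, and IKZF5 has a GG site upstream, which the score also penalises. No such split was made for pairs with GT at both sites.

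CD151, a tetraspanin of the cell surface, illustrates the GTAG type, with 10.44 at its canonical downstream site and 7.23 upstream at chr11:833023-833026. SEC61G, a subunit of the protein-conducting channel of the endoplasmic reticulum, gave 10.44 and 6.48 at chr7:54826851-54826854, and was named after its values were seen. The reverse order was extreme in RPS10, a protein of the small ribosomal subunit. Its upstream site at chr6:34393805-34393808 scored 10.96 and the site 4 bases on -4.04, a difference of -15.00 that was the lowest among pairs with GT at both sites. No annotated transcript used that downstream site. NAT9, an acetyltransferase, was alike, with 6.35 and -5.54 and no annotated transcript downstream.
CD151, 4 bases: gacgcgtgGTAGgtgagtgc
SEC61G, 4 bases: tcggttggGTAGgtgagttt
RPS10, 4 bases: ccgcagagGTGAgtttctgt
NAT9, 4 bases: gattgcagGTTTgtttcacc

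Among pairs 3 bases apart the order also differed with the added bases. GTA was added in 10 of the 21 pairs, and none of these scored higher downstream. GTG was added in 8, and 7 of these scored higher downstream. Some GTA pairs, such as those of DDX46 and FAM104B, had a downstream site without GT, which the score penalises. At this distance the added bases belong to the windows of both sites, so the order of the scores partly follows from the letters. The canonical transcript used the upstream site in 8 of the 10 GTA pairs and the downstream site in 6 of the GTG pairs against 1 upstream. STAT3 was among the GTA pairs whose canonical transcript used the downstream site. KIAA1033, with 7.21 upstream and -4.61 downstream, and RASA2, a GTPase-activating protein for Ras, with 7.21 and -4.09, had the same upstream score and the upstream site as canonical. GNB3, a G protein beta subunit, and MADD, a regulator of Rab3 and of MAP kinase signalling, were GTG pairs, with differences of 7.32 and 8.46 that fell to 3.13 and 3.82 with the base frequencies of the windows as background.
KIAA1033, 3 bases: ttatacagGTAgttgcatc
RASA2, 3 bases: acagccagGTAgttgtgtt
GNB3, 3 bases: gacaccacGTGgtgaggct
MADD, 3 bases: ttagcaccGTGgtagggga

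GT began the intron at both sites in 288 of the 332 pairs, or 86.7% (82.7 to 90.0), and in 92.6% of the pairs over 12 bases apart (91.2 to 93.8). A GC site upstream of a GT site accounted for 30 pairs, or 9.04% (6.40 to 12.6), compared with 4.30% (3.43 to 5.38) further apart. GC is the commonest substitute for GT at human 5'SS. Of these 30 pairs, 17 were 4 bases apart. The GT site was the canonical one in 17 of the 22 pairs with a single canonical site, or 77.3% (56.6 to 89.9). FANCA, a subunit of the Fanconi anaemia core complex, was among the exceptions at chr16:89805537-89805540 after exon 41 of 43. Its GC site is canonical with 2 protein-coding transcripts, and the GT site 4 bases on, which scored 4.56, has 3. RFX5, a regulator of MHC class II genes, also had a canonical GC site, with 10 annotated transcripts against 4 at the GT site 7 bases on. In PRNP, the prion protein gene, the canonical first exon ended at the GT site, which scored 8.06. PRNP was named after its values were seen.
FANCA, 4 bases: agggtcagGCAGgtgcaagg
RFX5, 7 bases: cggagaagGCAAGTGgtgagaaa
PRNP, 4 bases: cgaccgagGCAGgtaaacgc

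The canonical transcript used the upstream site in 127 and the downstream site in 146 of the 273 pairs where it used exactly 1 of them. It used the higher-scoring site in 190, or 69.6% (63.9 to 74.8), against 62.2% of 1249 pairs over 12 bases apart (59.5 to 64.9). With GT at both sites the share rose with the size of the score difference. It was 51.7% of 60 pairs that differed by under 1 (39.3 to 63.8), 65.8% of 114 that differed by 1 to 3 (56.7 to 73.9) and 90.5% of 63 that differed by 3 or more (80.7 to 95.6). For pairs over 12 bases apart the corresponding shares were 51.7%, 60.4% and 72.4%. Where the scores tied and the upstream site was canonical, as in PAK4, the pair was counted as using the higher-scoring site. PAK4 is thus among the 190 and among the pairs that differed by under 1. The canonical label is a choice of the annotation and no measurement of HEK293T cells.

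Exons with close pairs resembled other exons of the table in size. The short form had a median length of 136 bases (quartiles 97 and 198) and the intron after the long form 1212 bases (395 and 4152), against 130 and 1499 bases for pairs over 12 bases apart. The same exon was often listed as a cassette exon too. In 132 of the 332 pairs, or 39.8% (34.6 to 45.1), the long or the short form was a skipped exon in the skipped-exon table, and in 118 both forms were. The share was 28.5% for pairs over 12 bases apart (26.4 to 30.7). Close pairs were more often in exons that are internal in a transcript, 68.7% against 53.8%, and first exons cannot be skipped. Among internal exons the shares were 57.5% of 228 (51.0 to 63.7) and 52.9% of 902 (49.6 to 56.1), whose intervals overlap.

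A listed retained intron began at a site of 13 close pairs, or 3.92% (2.30 to 6.58), and of 12.4% of the pairs further apart (10.9 to 14.1). Within coding sequence the shares were 1.79% of 223 (0.70 to 4.52) and 11.1% of 913 (9.19 to 13.3). The next exon had a listed alternative 3'SS in 32 close pairs, or 9.64% (6.91 to 13.3), and in 7.52% of the others (6.35 to 8.88). For comparison, 1062 of the 2868 alternative 3'SS events had their sites 1 to 12 bases apart, compared with 415 of the 2620 alternative 5'SS events.

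Genes were also grouped by the start of their symbols, which misses genes of like function with other names. Over all coding close pairs 56.5% kept the frame. Chromatin and transcription genes held 29 close pairs in 27 genes, or 8.73% of the 332, and 5.78% of all 2008 pairs. Most were zinc finger genes, such as ZNF638 and ZNF816 with pairs 10 bases apart in the 5'UTR. Only 5 of the 18 coding pairs of this list kept the frame. The RNA processing list held 6 pairs, or 1.81% against 1.15% of all pairs, and its 5 coding pairs kept the frame. Outside the list, the splicing factor SF1 and the RNase P subunit RPP21 had coding pairs 4 and 7 bases apart, which shift it. DDX17, an RNA helicase, had 6 bases at chr22:38883878-38883883 with a downstream score 2.16 above the upstream one (3.36 with the other background), and RBMS1, an RNA-binding protein, 9 bases at chr2:161143480-161143488 with 9.58 and 7.15, an order that turned with the other background. Transport and membrane genes held 14 pairs (4.22% against 6.37% of all pairs), signalling genes 9 (2.71% and 2.29%), ubiquitin genes 6 (1.81% and 2.69%), DNA repair and cell cycle genes 5 (1.51% and 2.19%) and translation genes 5 (1.51% and 2.09%). None of the 5 coding pairs of the ubiquitin list kept the frame, whereas NAE1, a subunit of the NEDD8-activating enzyme outside it, had a coding pair 9 bases apart that does. NAE1 and SF1 are single examples named after their values were seen, and no share was taken over genes outside the lists. The ubiquitin list included RNF7, a RING subunit of cullin ligases, with sites 7 bases apart that scored 7.44 and 7.20. In SLC11A2, an iron transporter, a pair 5 bases apart in the first exon scored 9.15 and 10.43, again in an order that turned. These counts are small, and no list is called particular from them.
DDX17, 6 bases: aggcggggGTAAGGgtaagtcc
RBMS1, 9 bases: aaggagagGTGAGACTTgtaagtcc
RNF7, 7 bases: gggtccagGTGATGGgtaagcgc
SLC11A2, 5 bases: cggagctgGTAAGgtgagggg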

How the data were processed

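The authors sequenced polyadenylated RNA of 1 control and 1 amiloride library and, per the labels, used STAR 2.5.1 and the build hg19 (GRCh37). They ran rMATS, whose version and annotation are not given in the sources used here. Each of the 5 tables the authors deposited holds, per event, exon positions, effective lengths, reads and inclusion levels per numbered library, and the outcome of the authors' test (p-value, FDR and difference of inclusion). Over the 5 tables, 30 columns of numbered libraries, 6 in each table, match no sample's label, and the 15 columns of the authors' comparison were left out. Only positions and lengths were used. The depth is unknown, no test was made, and pairs are not replicates.

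The members and lists were chosen with earlier results of these data known. Events sharing both exon ends were merged into pairs. Sequence came from GRCh37 and transcripts from GENCODE release 44 lifted to GRCh37. All 332 next exons of members follow an AG, which checked the build. Coding, canonical (1 transcript per gene) and protein-coding labels are GENCODE's. The score was built from 300873 annotated 5'SS with GT, with a pseudocount of 0.5, and sums logs over 9 bases. Close annotated pairs are exon ends of a gene with the same exon start.

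The genes named are textbook close pairs, up to 3 pairs per distance with the most protein-coding transcripts at the less annotated site, the 5 highest and 5 lowest score differences among pairs with GT at both sites, and up to 3 pairs per list of symbols. Of the 58 pairs so named, those that carry a comparison are described. Sequence from chromosome 8 is not printed. Some named pairs are not reported here. The planned look-up in RefSeq proteins was not run. Scripts were tested on simulated data. Scripts ran in Python 3.11.15 with pandas 2.3.3, numpy 2.4.6, matplotlib 3.10.9 and scipy 1.17.1.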

Additional observations from a re-analysis of the deposited data

How the results depend on the processing

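Of 29 alternative settings of the summary values, 24 stayed within the 95% interval of the value reported or, for the number of pairs, within 1.5 times. Counting protein-coding transcripts only lowered the share with both sites annotated to 68.4%. With the base frequencies of the windows as background, 48.2% of pairs scored higher downstream and the median difference was -0.07. By the number of the 9 positions that match the consensus, 26.8% had more matches downstream, 37.7% more upstream and 35.5% as many. Internal exons only, an alternative chosen after seeing the data, raised the share listed as skipped exons to 57.5%, which follows from leaving out first exons. The lean at 4 bases was 64.9% downstream and that at the other distances 43.1% with the windows' base frequencies, and the canonical transcript used the higher-scoring site in 64.5%.

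The same background turned the sign of 15 score differences of named pairs: ANAPC11 to 1.23, BABAM1 to -1.58, FGFR1 exon 4 to -3.45, HAUS4 to 2.21, MAP3K4 to -0.64, MCMBP to -3.65, NRXN3 to 0.43, OSBPL5 to -0.33, RAP1B to -0.12, RBMS1 to 1.5, SLC11A2 to -1.13, TFG to -1.90, THTPA to -0.34, ZFYVE27 to -0.48 and ZNF638 to -1.36. Of pairs named outside the rule, whose alternatives were added after seeing the data, it turned MADD at 12 bases to -0.32 and OXLD1 to 0.95 at 4 bases and 0.17 at 9 bases. A pseudocount of 5 turned none.

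No paired analysis was possible because no column used belongs to a library and a condition holds only 1. Close forms differ by at most 12 bases of effective length, and the reads behind them were not used, so a pair listed on few reads counts like any other.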

Other observations

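Neither GT nor GC began the intron at a site of 6 close pairs, or 1.81% (95% Wilson interval 0.831 to 3.89), and of 0.179% of the pairs over 12 bases apart (0.0609 to 0.525). Besides FGFR1 and FGFR2 they were in DDX46, IKZF5, SLIT2 and VDAC3. In DDX46, an RNA helicase of the spliceosome, the canonical site began with TT and lay 3 bases after a GT site that scored 5.77. These genes were named after their values were seen.
DDX46, 3 bases: agtctcagGTAttaagtaa

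Some sites belonged to more than 1 close pair, 11 of 652 sites in all. MADD had 3 pairs from 3 sites in 12 bases of exon 23 on chromosome 11. The sites scored 3.22, -2.57 and 5.89 in order, the canonical transcript used the last, the order of the first and last turned with the base frequencies of the windows as background, and every step kept the frame at 9 and 3 bases. FAM104B had 3 pairs 3, 4 and 7 bases apart, with a GC site between GT sites of 4.42 and 5.90. OXLD1 had 4 pairs in a 3'UTR, with scores from -0.73 to 3.15, whose order turned in 2 of the 4 pairs with that background, and no protein-coding transcript at any of them. FAM104B and OXLD1 were named after their values were seen.

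The stretch between the sites was repeated directly after it in 24 of the 332 pairs, or 7.23% (4.91 to 10.5). In OSBPL5, a lipid transfer protein, the 7 bases stand before and after the downstream site, and the downstream score was 1.76 above the upstream one, a difference that turned to -0.33 with the base frequencies of the windows as background.
OSBPL5, 7 bases: gcggcacgGTAGGAGgtaggagc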
